A study of Homo sapiens with 7 samples.

Results

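Of 35 genes of glycolysis and of the cellular response to low oxygen chosen by symbol, 34 were found among the 22257 genes of the deposited tables; MXI1-AS was not analysed here. They comprised 17 glycolytic enzymes from hexokinase to lactate dehydrogenase, 3 regulators of glycolytic flow (PFKFB3, PFKFB4 and PDK1), HIF1A with the oxygen sensors EGLN1 and EGLN3, and 11 other genes that hypoxia-inducible factor (HIF) is known to switch on. Each gene was represented by its RefSeq transcript of highest mean count in the 7 libraries.

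Glycolysis breaks glucose down to pyruvate, and lactate dehydrogenase turns pyruvate into lactate when the mitochondria do not take it up. HIF1A is the oxygen-labile subunit of HIF: prolyl hydroxylases of the EGLN family mark it for destruction while oxygen is present, and in low oxygen it accumulates and binds short DNA motifs beside genes of glycolysis, blood vessel growth and mitochondrial turnover. In lymphoma B cells, signalling through the B-cell receptor and Bruton tyrosine kinase (BTK) is also known to support glucose use.

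RNA was sequenced from RL and JeKo-1, both human lymphoma cell lines that the submitters describe as mantle cell lymphoma (MCL), kept in RPMI medium with serum. Cells received a BTK inhibitor for 6 h, named as ibrutinib in the study title with no dose given, or no agent. There were 2 treated RL, 2 control RL, 2 treated JeKo-1 and 1 control JeKo-1 libraries. The labels do not say whether replicate libraries were made from separate cultures. Each p-value therefore rests on library-to-library variation that could be purely technical.

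Counts summed over all transcripts came to 32403924 and 56773306 in treated RL, 41084666 and 43982874 in control RL, 39486684 and 40693456 in treated JeKo-1 and 41488886 in control JeKo-1. Levels are given as counts-per-million (CPM) values after scaling by the trimmed mean of M values (TMM) over the 7 libraries. The 5 B-cell markers summed to between 2210 and 2620 CPM in the RL libraries and between 931 and 974 CPM in the JeKo-1 libraries, and the MCL markers CCND1 and SOX11 to between 701 and 840 CPM and between 415 and 468 CPM. T and NK cell markers summed to at most 0.705 CPM and myeloid markers to at most 1.53 CPM in any library, with S100A8, S100A9 and MPO at 0 counts in all 7. EPCAM made up most of the epithelial and stromal sum of 83.8 to 90.3 CPM in RL, and that sum was 0.914 to 1.49 CPM in JeKo-1.

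After 6 h of BTK inhibitor, RL cells had more mRNA of the phosphofructokinase PFKL, of the HIF target genes NDRG1, P4HA2 and BNIP3L, of the regulator PFKFB3 and of the aldolase ALDOC, and less of the hexokinase HK2. Of 33 genes tested, 6 rose and 1 fell at an adjusted p under 0.05 in edgeR's quasi-likelihood test. Across all genes tested in RL, 30.4% were called, 15.1% higher and 15.3% lower, beside 21.2% (7 of 33) of these genes. The median log2 fold change of the 33 was 0.08, against 0.01 over all genes tested. In bulk RNA, a smaller share of cells with a transcript and less of it per cell cannot be told apart. The calls of PFKL, NDRG1 and P4HA2 held in all 10 alternative analyses. The count of rises was 14 without treated RL replicate 1 and 14 without control RL replicate 2, but 4 without treated RL replicate 2 and 4 without control RL replicate 1. The count of falls was 5 without control RL replicate 1 and 2 without treated RL replicate 2. The order of the 2 shares turned with the library left out: without treated RL replicate 1, 45.5% of these genes were called against 28.4% of all genes, and without control RL replicate 2, 45.5% against 22.0%. Without control RL replicate 1 it was 27.3% against 23.1%, and with no filter 38.2% against 26.5%, while without treated RL replicate 2 it was 18.2% against 26.0%.

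**Figure D1:**
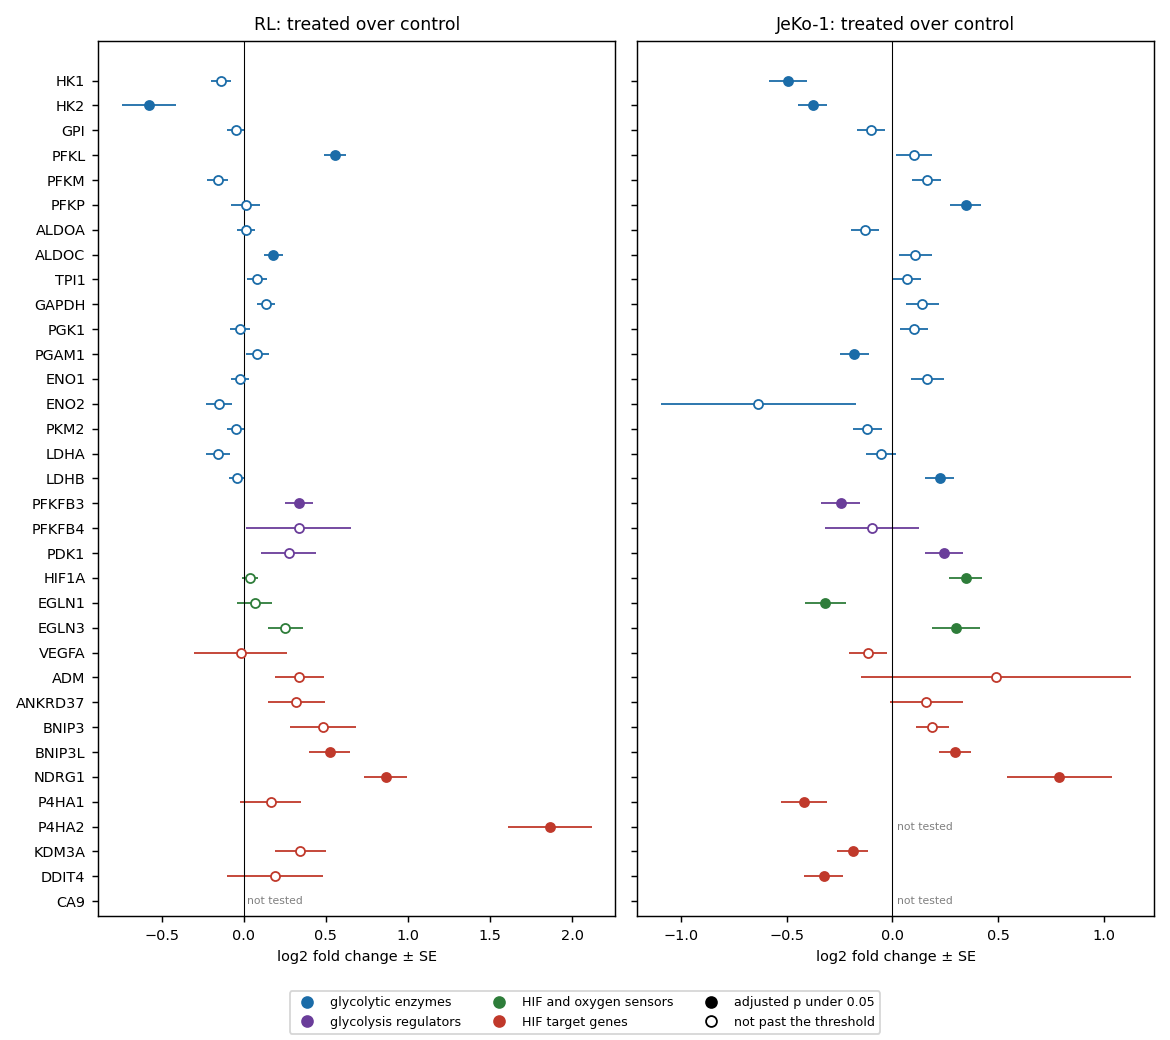
Log2 fold change of treated over control cells for each gene, with its standard error (SE), in RL (left panel) and JeKo-1 (right panel); filled points passed an adjusted p of 0.05, open points did not, and colours mark the role groups. In RL the values of the HIF target genes lie right of 0 except VEGFA, with P4HA2 at 1.87 the highest, while in JeKo-1 the filled points lie on both sides of 0.

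Among the 17 glycolytic enzymes in RL, 2 rose, 1 fell and 14 did not pass the test, and their median log2 fold change was -0.02. PFKL, the liver-type subunit of phosphofructokinase, which commits sugar to glycolysis, had 34.4 and 37.3 CPM in the treated RL libraries, against 23.4 and 25.8 CPM in control RL. Both treated libraries lay above both controls, and the log2 fold change was 0.55 ± 0.07 (SE; edgeR adjusted p = 7.5e-05). The other phosphofructokinase genes differed less: the log2 fold change was -0.16 ± 0.06 for PFKM, the muscle type (adjusted p = 0.0835), and 0.01 ± 0.09 for PFKP, the platelet type (adjusted p = 0.931).

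HK2, an inducible hexokinase that traps glucose in the cell by phosphorylation, had 22.6 and 34.1 CPM in treated RL, against 36.2 and 50.3 CPM in control RL. Treated and control libraries did not overlap, although the higher treated library came close to the lower control. The log2 fold change of HK2 was -0.58 ± 0.16 (edgeR adjusted p = 0.0191), and DESeq2 did not call it (adjusted p = 0.277). HK1, the constitutive hexokinase, had 30.6 and 30.0 CPM in treated RL and 32.1 and 34.9 CPM in control RL, with a log2 fold change of -0.14 ± 0.06 (adjusted p = 0.101).

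ALDOC, an aldolase that splits fructose 1,6-bisphosphate, had 60.7 and 64.7 CPM in treated RL and 53.5 and 57.9 CPM in control RL, a log2 fold change of 0.18 ± 0.06 (edgeR adjusted p = 0.0323). That rise was small and was no longer called without treated RL replicate 2, without control RL replicate 1 or in DESeq2 (highest adjusted p 0.318). The abundant enzymes of lower glycolysis did not pass the test: log2 fold changes were 0.14 ± 0.05 for GAPDH (adjusted p = 0.0811), -0.02 ± 0.06 for PGK1 (adjusted p = 0.824), -0.02 ± 0.06 for ENO1 (adjusted p = 0.79) and -0.05 ± 0.05 for PKM2 (adjusted p = 0.53). PKM2 is the symbol under which the tables list the pyruvate kinase gene PKM. LDHA, which makes lactate, had 591 and 692 CPM in treated RL and 683 and 753 CPM in control RL, with overlapping libraries and a log2 fold change of -0.16 ± 0.07 (adjusted p = 0.13). The transcripts of a gene held nearly the same counts: in all 16 members with several transcripts, the lowest transcript total was at least 90% of the highest, so isoforms such as those of pyruvate kinase cannot be told apart. GENCODE v29 lists 62 pseudogenes named after GAPDH, 39 after BNIP3, 13 after PGAM1 and 6 after LDHA, and how reads were shared between a gene and its copies is uncertain.

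Of the regulators, PFKFB3, which makes the phosphofructokinase activator fructose 2,6-bisphosphate, rose in RL. It had 40.5 and 47.2 CPM in treated RL, against 32.1 and 38.0 CPM in control RL, with no overlap and a log2 fold change of 0.34 ± 0.09 (edgeR adjusted p = 0.0112). In edgeR the call was lost without treated RL replicate 2 (adjusted p = 0.0671) and without control RL replicate 1 (adjusted p = 0.0538). For PFKFB4, another enzyme of that family, the log2 fold change was 0.33 with an SE of 0.32 (adjusted p = 0.47). For PDK1, the kinase that holds pyruvate back from the mitochondria, it was 0.27 ± 0.17 (adjusted p = 0.246).

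HIF1A mRNA stood at 86.6 and 92.2 CPM in treated RL and 87.4 and 87.6 CPM in control RL, and the groups overlapped (log2 fold change 0.04 ± 0.05, edgeR adjusted p = 0.61). HIF1A is controlled mainly at the level of its protein, which was not measured. The library kit does not mark strand, so reads from antisense transcripts at this or any other gene are included. The log2 fold changes of the oxygen sensors EGLN1 and EGLN3 in RL were 0.07 ± 0.11 (adjusted p = 0.686) and 0.25 ± 0.11 (adjusted p = 0.101).

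Of the 10 HIF target genes tested in RL, 3 rose and none fell, and 9 of the 10 had a positive log2 fold change, with a median of 0.34. Over all genes, 15.1% were called higher, and the median log2 fold change was 0.01. That count of signs changed with the library left out: without treated RL replicate 2, 5 of the 10 were positive, with a median of 0.05. Without control RL replicate 1, 7 of the 10 were positive, with a median of 0.13. All 10 were positive without treated RL replicate 1 and without control RL replicate 2, with medians of 0.53 and 0.67. With replicate number as a block, 9 of the 10 were positive, with a median of 0.34. P4HA2, a collagen prolyl hydroxylase, had 2.28 and 1.64 CPM in treated RL, against 0.437 and 0.598 CPM in control RL. These levels rest on 79 and 100 reads in treated RL and 19 and 28 reads in control RL, and the treated libraries lay clearly above the controls. The log2 fold change of P4HA2 was 1.87 ± 0.25, or 3.64-fold (edgeR adjusted p = 0.000187), the largest among the 33 genes.

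NDRG1, a growth-inhibitory protein induced by hypoxia in many cell types, had 3.70 and 4.01 CPM in treated RL, against 2.16 and 2.12 CPM in control RL. The libraries of a group lay close together, and the log2 fold change was 0.86 ± 0.13 (edgeR adjusted p = 0.000395). BNIP3L, a mitophagy receptor, had 53.4 and 73.5 CPM in treated RL, against 40.0 and 49.1 CPM in control RL. The groups did not overlap, and the log2 fold change was 0.52 ± 0.12 (adjusted p = 0.00746), but the call was lost in DESeq2 (adjusted p = 0.186). The libraries of its close relative BNIP3 overlapped (0.48 ± 0.20, adjusted p = 0.0909). BNIP3 was called in the 7-library model (adjusted p = 0.0298), with no filter, without treated RL replicate 1 and without control RL replicate 2, and without treated RL replicate 2 its log2 fold change was -0.0077. CA9, a carbonic anhydrase often used as a marker of hypoxic tumour cells, was too low to test: it had 0 and 8 reads in treated RL, 2 and 8 in control RL, 0 and 4 in treated JeKo-1 and 2 in control JeKo-1. A count of 0, read as up to 3 counts, allows up to 0.0866 CPM in treated RL replicate 1.

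In 12 of the 33 genes tested in RL the treated and control libraries did not overlap, against 65.1% of all genes, and all 7 called genes were among these 12. In the other 21 genes treated and control libraries overlapped, among them PFKFB4, VEGFA and DDIT4, whose 2 libraries of a group lay farthest apart. In treated RL, replicate 2 was at least 1.5-fold above replicate 1 for 8 of 33 members, namely HK2, PFKFB4, PDK1, VEGFA, ANKRD37, BNIP3, P4HA1 and DDIT4. The comparison set was the 11664 genes with at least 10 reads in both libraries and a mean level within the members' range, 1.96 to 2060 CPM. Of that set, 36 (0.309%) passed that fold, so the 8 members made up 22.2% of them. In control RL, PFKFB4, VEGFA and DDIT4 passed it, 3 of 33. There 1.1% of the 13624 genes in the members' range, 0.518 to 1890 CPM, did so. No member was at least 1.5-fold lower in replicate 2 in either group, against 0.0429% of the comparison set in treated RL and 0.668% in control RL.

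PFKFB4 had 8.86 CPM in treated RL replicate 1 and 17.9 CPM in replicate 2, and 6.77 CPM in control RL replicate 1 and 15.2 CPM in replicate 2. It ranked 3rd of the 11664 genes by that difference in treated RL. VEGFA, the main blood vessel growth factor, had 7.88 and 15.4 CPM in treated RL and 8.33 and 16.0 CPM in control RL, in the same order of replicates. DDIT4, an inhibitor of mTORC1 signalling, had 13.2 and 23.7 CPM in treated RL and 10.4 and 22.8 CPM in control RL. For all 3 genes the gap between the libraries of a group was larger than that between treated and control means, and their log2 fold changes had SEs of 0.32, 0.28 and 0.29. P4HA1, the other collagen prolyl hydroxylase, had 24.7 and 39.2 CPM in treated RL and 23.6 and 34.5 CPM in control RL. BNIP3 had 12.4 and 21.6 CPM in treated RL and 10.7 and 14.2 CPM in control RL. ANKRD37, a small ankyrin-repeat protein gene, had 4.62 and 7.03 CPM in treated RL and 4.30 and 5.34 CPM in control RL. In each of these genes replicate 2 was the higher library of both groups.

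**Figure D2:**
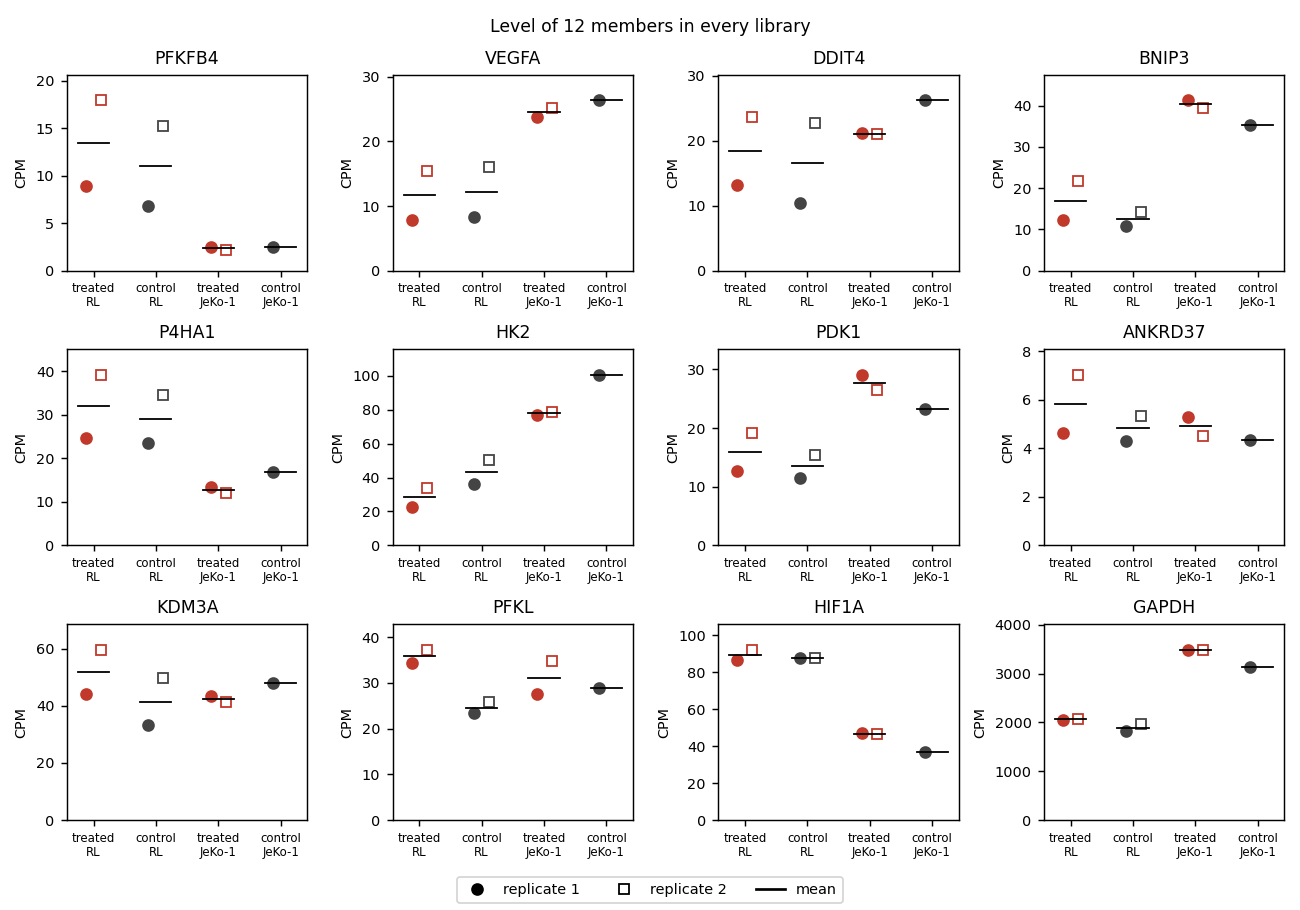
Level in CPM of 12 genes in each library, with treated RL, control RL, treated JeKo-1 and control JeKo-1 from left to right; filled circles are replicate 1, open squares replicate 2 and lines the group means. In both RL groups the square lies well above the circle for PFKFB4, VEGFA and DDIT4, while the treated JeKo-1 libraries lie close together (VEGFA 23.8 and 25.2 CPM).

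Replicate 2 was the higher library for 30 of 33 members in treated RL and 31 of 33 in control RL, and for 28 in both. The members' median log2 ratio of replicate 2 over replicate 1 was 0.14 in treated RL and 0.18 in control RL. Over all genes of the members' CPM range it was -0.006 and -0.004. The median absolute log2 difference between libraries was 0.17 in treated RL and 0.18 in control RL for the members. It was 0.08 for all genes of the members' CPM range in each group. By role, that median in treated RL was 0.11 for the glycolytic enzymes, 0.59 for the 3 regulators, 0.12 for HIF1A and its sensors and 0.54 for the 10 HIF target genes tested. In treated RL the differences of the 8 genes were 4.54 to 11.6 times their Poisson counting error. The exception among the HIF target genes was P4HA2, which was lower in replicate 2 of treated RL (1.64 against 2.28 CPM in replicate 1). In treated JeKo-1, replicate 2 was higher for 14 of 32 members. The median absolute difference was 0.08, against 0.09 for all genes of the members' range there, 0.36 to 3480 CPM. Replicate 2 was at least 1.5-fold higher in 1.78% of those genes and in 1 of 32 members. That member was ENO2, the neuronal enolase, at 12 and 20 reads. What set RL replicate 2 apart from replicate 1 was not tested, and replicate 2 was also the larger library in both RL groups (56773306 counts against 32403924 in treated RL, 43982874 against 41084666 in control RL).

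**Figure D3:**
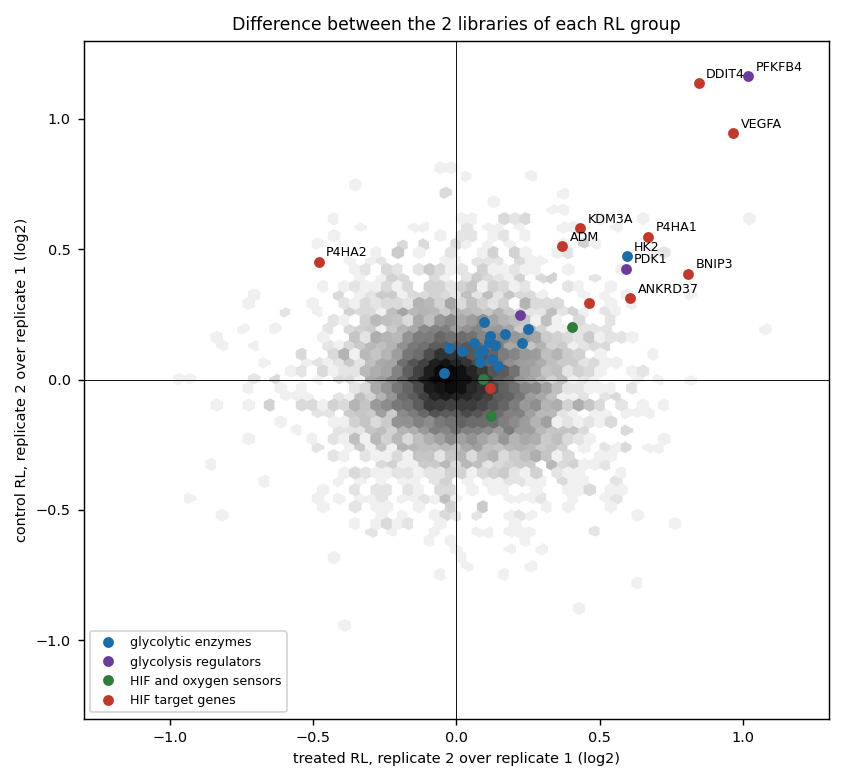
Log2 ratio of replicate 2 over replicate 1 in treated RL (horizontal axis) and control RL (vertical axis); coloured points are the tested members by role group, and grey hexagons hold all genes with enough reads, darker where more genes lie (genes beyond the axes are not drawn). Most coloured points lie in the upper right, with PFKFB4 (8.86 and 17.9 CPM in treated RL), VEGFA and DDIT4 farthest out and P4HA2 alone far to the left.

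HIF binds DNA at a core motif spelled ACGTG or GCGTG, so the 250 bases before the annotated start were searched for it on both strands, with overlapping matches merged. RefSeq promoter windows (GRCh38.p14) were found for 31 of the 34 members, 55 windows in all, and 26 of the 31 had a match in at least 1 window. The share by gene over all genes is not given here, so that count describes the members only. Genes with several windows have more chances of a match. A match was present in 60.0% of the 55 windows and in 43.2% of 35116 windows of all genes. It was present in 8 of 9 windows of the HIF target genes (88.9%) and in 51.4% of the 37 windows of the glycolytic enzymes. These shares count windows and do not compare genes. HK1 and PFKM supplied many of the enzyme windows, most of them without a match, and the KDM3A windows overlap and share their match. The windows below belong to the genes with 1 annotated start among the 8 members at least 1.5-fold higher in replicate 2 of treated RL. The motif on either strand is in capitals, and each sequence runs 5′ to 3′ on the strand of its gene. The windows are chr3:48556804-48557053 (minus strand) for PFKFB4, chr4:185396591-185396840 (plus strand) for ANKRD37, chr10:131981924-131982173 (minus strand) for BNIP3, chr10:73096867-73097116 (minus strand) for P4HA1 and chr10:72273674-72273923 (plus strand) for DDIT4.
PFKFB4: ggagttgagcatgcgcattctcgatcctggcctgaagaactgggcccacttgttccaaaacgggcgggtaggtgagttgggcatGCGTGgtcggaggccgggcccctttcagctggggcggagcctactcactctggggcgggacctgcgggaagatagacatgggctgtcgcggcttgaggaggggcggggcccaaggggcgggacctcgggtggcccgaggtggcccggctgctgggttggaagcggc
ANKRD37: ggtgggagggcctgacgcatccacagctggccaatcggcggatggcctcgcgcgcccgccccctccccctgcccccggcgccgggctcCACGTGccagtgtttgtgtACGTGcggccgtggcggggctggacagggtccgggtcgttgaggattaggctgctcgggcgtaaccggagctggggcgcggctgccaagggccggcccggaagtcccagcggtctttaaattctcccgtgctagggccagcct
BNIP3: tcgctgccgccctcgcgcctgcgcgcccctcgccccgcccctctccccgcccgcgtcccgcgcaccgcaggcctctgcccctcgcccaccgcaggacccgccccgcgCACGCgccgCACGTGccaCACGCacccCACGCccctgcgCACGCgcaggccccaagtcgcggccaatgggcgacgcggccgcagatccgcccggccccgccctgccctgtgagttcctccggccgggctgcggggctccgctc
P4HA1: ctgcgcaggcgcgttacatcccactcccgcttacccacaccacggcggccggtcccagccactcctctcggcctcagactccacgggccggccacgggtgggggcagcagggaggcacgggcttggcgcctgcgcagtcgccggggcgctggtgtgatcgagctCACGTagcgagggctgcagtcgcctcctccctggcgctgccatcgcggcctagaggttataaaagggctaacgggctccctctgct
DDIT4: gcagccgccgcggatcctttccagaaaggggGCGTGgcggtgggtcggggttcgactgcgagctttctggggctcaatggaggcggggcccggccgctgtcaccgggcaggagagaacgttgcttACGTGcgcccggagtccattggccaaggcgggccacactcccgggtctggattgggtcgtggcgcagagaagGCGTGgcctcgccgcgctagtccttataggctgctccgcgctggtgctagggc
PFKFB4 and P4HA1 each had 1 match, ANKRD37 had 2, DDIT4 had 3 and BNIP3 had 5, where overlapping matches on the 2 strands count once. A match is a string of letters in the window and says nothing on whether HIF was bound in these cells. Nor was the motif limited to genes that differed between libraries: the PFKL and ALDOC windows held 1 and 4 matches, and the P4HA2 window held 0.

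In JeKo-1, inhibitor-treated cells had less HK1 and HK2 mRNA and more LDHB, HIF1A and PFKP. Of 32 genes tested, 7 rose (PFKP, LDHB, PDK1, HIF1A, EGLN3, BNIP3L and NDRG1) and 8 fell (HK1, HK2, PGAM1, PFKFB3, EGLN1, P4HA1, KDM3A and DDIT4) in edgeR's quasi-likelihood test. Across all genes tested in JeKo-1, 28.3% were called, 13.4% higher and 14.9% lower, beside 46.9% (15 of 32) of these genes. With 1 control library there is 1 residual degree of freedom, and most of the calls did not last. With the spread estimated over all 7 libraries, 4 rose and 1 fell, and in DESeq2 4 rose and 2 fell. In fits over the other 6 libraries, 4 rose and 1 fell without treated JeKo-1 replicate 1, and 3 rose and 1 fell without treated JeKo-1 replicate 2. The order of the 2 shares turned in the 7-library model, where 15.2% of these genes were called against 22.2% of all genes, and without treated JeKo-1 replicate 2, with 12.1% against 18.5%. Without treated JeKo-1 replicate 1 both shares were 15.2%. The calls of HK1, LDHB and HIF1A held in all 7 alternatives.

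HK1 had 20.5 and 23.4 CPM in treated JeKo-1, against 30.7 CPM in control JeKo-1. Both treated libraries were lower, with a log2 fold change of -0.49 ± 0.09 (edgeR adjusted p = 3.54e-07; over the alternatives at most 0.0154). HK2 had 77.1 and 78.5 CPM in treated JeKo-1, against 100.5 CPM in control JeKo-1 (log2 fold change -0.38 ± 0.07, adjusted p = 2.24e-07), but with the spread of all 7 libraries, or without either treated library, it was not called (adjusted p up to 0.313).

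LDHB, the lactate dehydrogenase subunit that favours the return of lactate to pyruvate, had 778 and 771 CPM in treated JeKo-1, against 660 CPM in control JeKo-1. The treated libraries lay together above the control, with a log2 fold change of 0.22 ± 0.07 (edgeR adjusted p = 0.00624). HIF1A had 47.1 and 46.4 CPM in treated JeKo-1, against 36.6 CPM in control JeKo-1, a log2 fold change of 0.35 ± 0.08 (adjusted p = 7.54e-05). PFKP had 63.9 and 67.4 CPM in treated JeKo-1, against 51.4 CPM in control JeKo-1 (0.35 ± 0.07, adjusted p = 1.76e-05), and of the 7 alternatives its call was lost without treated JeKo-1 replicate 2 (adjusted p = 0.0575).

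The HIF target genes did not move one way in JeKo-1: of 9 tested, 2 rose, 3 fell and 4 did not pass the test, with a median log2 fold change of 0.16. NDRG1 had 2.49 and 2.63 CPM in treated JeKo-1, against 1.47 CPM in control JeKo-1, on 88, 97 and 58 reads. Its log2 fold change was 0.79 ± 0.25 (edgeR adjusted p = 0.00756), and DESeq2 did not call it (adjusted p = 0.338). BNIP3L had 49.1 and 46.0 CPM in treated JeKo-1, against 38.6 CPM in control JeKo-1 (0.30 ± 0.08, adjusted p = 0.000835). P4HA1 had 13.3 and 12.1 CPM in treated JeKo-1, against 16.9 CPM in control JeKo-1 (-0.42 ± 0.11, adjusted p = 0.000933). DDIT4 had 21.2 and 21.0 CPM in treated JeKo-1, against 26.2 CPM in control JeKo-1 (-0.32 ± 0.09, adjusted p = 0.00253), and KDM3A, a histone demethylase, had 43.4 and 41.2 CPM, against 47.9 CPM (-0.19 ± 0.07, adjusted p = 0.0424). The calls of BNIP3L, P4HA1, DDIT4 and KDM3A were all lost with the spread of all 7 libraries, in DESeq2 and without either treated library. P4HA2 had 8 and 2 reads in treated JeKo-1 and 7 reads in control JeKo-1 and was not tested. In 30 of 32 genes the treated libraries did not overlap the single control, where 82.4% of all genes did not.

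HK2, BNIP3L, NDRG1 and PFKFB3 passed the test in both lines. HK2 fell and BNIP3L and NDRG1 rose in both, while PFKFB3 rose in RL and fell in JeKo-1. Of the 32 genes tested in both lines, 12 had log2 fold changes of opposite sign. The same counts over all genes are not given here, so these counts describe the members only. The fall of PFKFB3 in JeKo-1 was lost in 5 of 7 alternatives, among them the 7-library model (adjusted p = 0.139), DESeq2 (adjusted p = 0.445) and the fits without treated JeKo-1 replicate 1 (adjusted p = 0.513) or replicate 2 (adjusted p = 0.144). Tested directly, the response differed between the lines for 6 of 33 genes, 18.2% beside 17.8% of all genes. The log2 fold change was higher in RL for 3 and lower for 3, where 8.95% and 8.82% of all genes were. PFKFB3 differed most in adjusted p: 0.57 ± 0.14 on the log2 scale (RL effect minus JeKo-1 effect, edgeR adjusted p = 0.00643). In JeKo-1 it had 19.7 and 21.9 CPM in treated cells, against 24.5 CPM in the control.

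LDHB and HIF1A responded less in RL than in JeKo-1, with differences of -0.28 ± 0.07 (edgeR adjusted p = 0.012) and -0.32 ± 0.09 (adjusted p = 0.0141), and both calls held in all alternatives. The phosphofructokinases split. The log2 fold change of PFKL was higher in RL, with a difference of 0.44 ± 0.14 (adjusted p = 0.0294). That of PFKM was lower in RL and of opposite sign in the 2 lines, with a difference of -0.33 ± 0.09 (adjusted p = 0.0155). HK1 differed by 0.34 ± 0.11 (adjusted p = 0.0386), being lower after treatment in JeKo-1. None of the 10 HIF target genes tested passed this test in the main edgeR fit, and their median difference was 0.25. That median was -0.03 without treated RL replicate 2 and 0.07 without control RL replicate 1. It was 0.52 without treated RL replicate 1 and 0.57 without control RL replicate 2. The calls of PFKL and HK1 were each lost in 4 of 10 alternatives, that of PFKM without control RL replicate 2 and that of PFKFB3 without treated JeKo-1 replicate 1. The numbers of genes called with a positive and with a negative difference both changed with the library left out. A positive difference is not always a larger response in RL, as HK1 shows.

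Without the inhibitor the lines differed in most of these genes, as they did in most genes, with low ENO2 and ADM in JeKo-1. Of 33 genes, 13 were higher and 14 lower in control RL than in control JeKo-1, 81.8% beside 76.4% of all genes. In DESeq2 these shares were 66.7% and 67.1%. Of the 27 calls, 21 held in all alternatives. This compares 2 control RL libraries with 1 control JeKo-1 library in a model of all 7. ENO2 had 24.8 and 29.0 CPM in control RL, against 0.685 CPM in control JeKo-1, a log2 fold of 5.29 ± 0.20 (edgeR adjusted p = 5.74e-15). ADM, the vasodilator peptide adrenomedullin, had 10.2 and 14.5 CPM in control RL, against 0.254 CPM in control JeKo-1, where it rests on 10 reads (5.59 ± 0.35, adjusted p = 2.18e-11). HIF1A was 2.39-fold higher in control RL (87.4 and 87.6 CPM) than in control JeKo-1 (36.6 CPM), with an adjusted p of 3.37e-12.

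**Figure D4:**
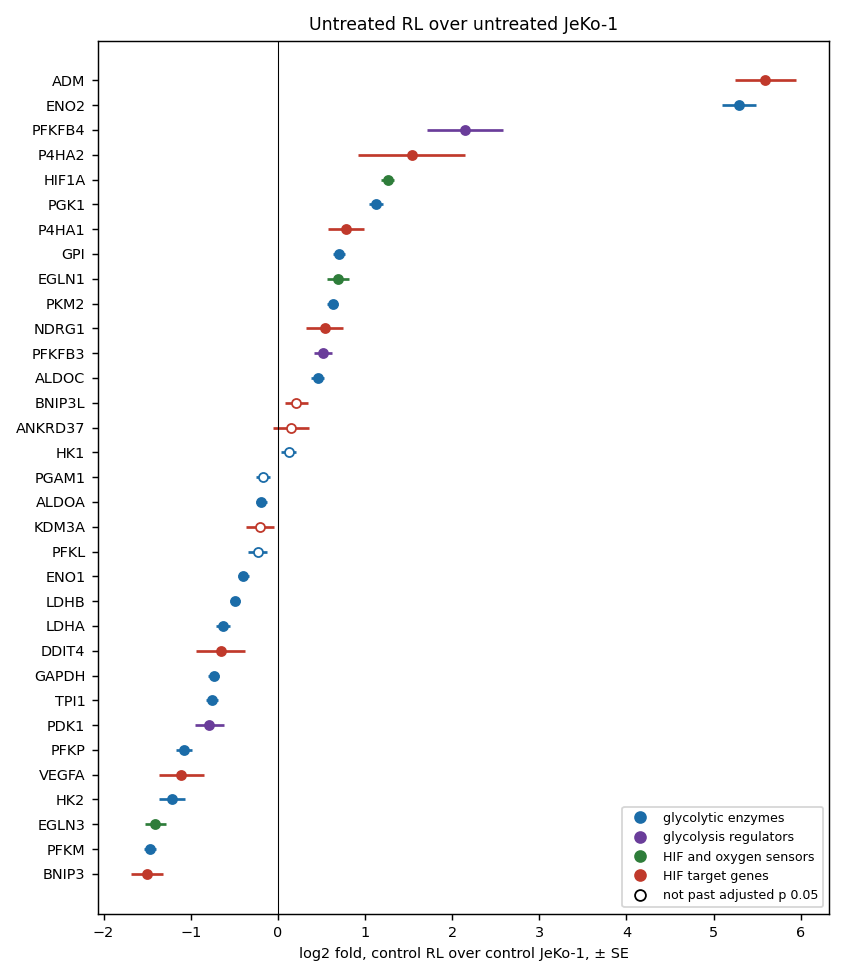
Log2 fold of control RL over control JeKo-1 with its SE for the 33 genes tested, in order of size; filled points passed an adjusted p of 0.05, open points did not, and colours mark the role groups. ADM (5.59) and ENO2 (5.29) lie far to the right, and each role group has members on both sides of 0.

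Lower in control RL were PFKM, with 29.0 and 32.0 CPM against 84.5 CPM in control JeKo-1 (log2 fold -1.47 ± 0.07, edgeR adjusted p = 2.28e-13), and BNIP3, with 10.7 and 14.2 CPM against 35.3 CPM (-1.50 ± 0.18, adjusted p = 4.02e-07). HK2 was lower as well, with 36.2 and 50.3 CPM in control RL and 100.5 CPM in control JeKo-1 (-1.22 ± 0.15, adjusted p = 4.21e-07). In the lower pathway PGK1 and PKM2 were higher in control RL, by log2 folds of 1.13 ± 0.08 and 0.63 ± 0.06, while GAPDH, TPI1, ENO1, LDHA and LDHB were lower, by -0.74, -0.76, -0.39, -0.63 and -0.50. Among the sensors, EGLN1 was higher (0.69 ± 0.13, adjusted p = 8.39e-05) and EGLN3 lower in control RL (-1.41 ± 0.12, adjusted p = 2.09e-09). The calls of ALDOA, VEGFA, NDRG1, P4HA1, P4HA2 and DDIT4 were each lost in at least 1 alternative. HK1, PFKL, PGAM1, ANKRD37, BNIP3L and KDM3A did not pass the test.

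Isozyme use can be compared between genes once counts are divided by transcript length, here the GENCODE v29 length, which may differ from the annotation used for counting. On this scale HK1 made up 68.4% and 58.5% of HK1 plus HK2 in treated RL, 58.7% and 52.6% in control RL, 29.9% and 32.3% in treated JeKo-1 and 32.9% in control JeKo-1. HK2 was thus the more abundant hexokinase mRNA of the pair in every JeKo-1 library and HK1 in every RL library. EGLN1 made up 69.7% and 73.7% of EGLN1 plus EGLN3 in treated RL, 72.2% and 76.7% in control RL, 33.4% and 28.3% in treated JeKo-1 and 40.6% in control JeKo-1. LDHA made up 46.2% to 52.9% of LDHA plus LDHB in the 7 libraries, with no separation of the lines. ENO2 remained a small part of enolase mRNA even in RL, at most 1.73% of ENO1 plus ENO2. These shares are values per library, with no test.

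A further 30 glycolysis genes and 30 hypoxia genes outside the 35 placed these changes in the wider pathways. Of 25 other glycolysis genes tested in RL, 5 rose and 6 fell (median log2 fold change 0.03), where 15.1% and 15.3% of all genes did. PDK2, a pyruvate dehydrogenase kinase, had 10.8 and 10.7 CPM in treated RL, against 6.70 and 6.58 CPM in control RL (0.70 ± 0.09, edgeR adjusted p = 9.39e-05). BRP44, now MPC2, a subunit of the mitochondrial pyruvate carrier, rose by 0.36 ± 0.08 (adjusted p = 0.00495), and the lactate transporter SLC16A1 and C12orf5, now TIGAR, fell by 0.40 and 0.38 on the log2 scale (adjusted p = 0.000593 and 0.000638). In JeKo-1, 4 of 26 rose and 4 fell (median -0.04), where 13.4% and 14.9% of all genes did. The gluconeogenic enzyme FBP1 had 6.31 and 6.77 CPM in treated JeKo-1, against 1.40 CPM in control JeKo-1 (2.22 ± 0.21, edgeR adjusted p = 2.14e-24). C12orf5, the glucose transporter SLC2A3 and the lactate exporter SLC16A3 fell by 0.34 ± 0.10, 1.31 ± 0.39 and 0.62 ± 0.19 on the log2 scale. SLC2A3 counts were low, with a Poisson counting error of 0.50 on the log2 ratio of its treated JeKo-1 libraries. Calls in the other lists are given from the main fit alone, and those in JeKo-1 rest on 1 control library.

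Of 26 other hypoxia genes tested in RL, 2 rose and 4 fell (median 0.02), and of 23 in JeKo-1, 1 rose and 9 fell (median -0.12). Over all genes, 15.1% rose and 15.3% fell in RL, and 13.4% rose and 14.9% fell in JeKo-1. BHLHE40, a transcriptional repressor, had 15.7 and 23.9 CPM in treated RL, against 36.1 and 48.1 CPM in control RL (-1.05 ± 0.16, edgeR adjusted p = 0.000376). It had 20.1 and 19.4 CPM in treated JeKo-1, against 42.9 CPM in control JeKo-1 (-1.13 ± 0.08, adjusted p = 1.98e-38). PLOD1, a collagen lysyl hydroxylase, fell in both lines, by 0.48 in RL (adjusted p = 0.00125) and 0.98 in JeKo-1 (adjusted p = 9.54e-14). WSB1 fell by 0.28 (adjusted p = 0.00218) and ZNF395 rose by 0.51 ± 0.15 (adjusted p = 0.0211) in RL, and KDM4B and the haem oxygenase HMOX1 fell in JeKo-1 by 0.76 and 1.94 (adjusted p = 4e-14 and 9.69e-07). HMOX1 had 0.424 and 0.433 CPM in treated JeKo-1, against 1.65 CPM in control JeKo-1, and 14.6 and 14.2 CPM in treated RL, against 12.7 and 12.8 CPM in control RL. Between the treated RL libraries, 4 genes of the other lists were at least 1.5-fold higher in replicate 2, namely MXI1 (4.27 and 7.80 CPM), AK4, SLC16A3 (7.02 and 11.1 CPM) and BHLHE40. They were 1 of 22 other glycolysis genes and 3 of 21 other hypoxia genes in the comparison set. That fold was passed by 0.309% of the whole set. In control RL, SLC2A3, SLC16A3 and PPP1R3C passed it, 2 of 24 and 1 of 24, beside 1.1% of the set there.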

How the data were processed

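RNA was sequenced from 7 libraries, and the analysis started from the deposited table of whole-number read counts for 34917 RefSeq transcripts. The tools named in the submitters' processing notes are CASAVA 1.8, Partek 6.6 and BWA (no version), on genome build hg19 (GRCh37). Per the labels, libraries came from an Illumina TruSeq kit. The log2 normalized values, the log2 ratios and the p-values that the authors deposited beside the counts were not used here.

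Counts were tested in R 4.3.3 with edgeR 4.0.16 (filterByExpr, TMM, quasi-likelihood), with Benjamini-Hochberg adjustment over all tested transcripts and calls at an adjusted p under 0.05. Treated and control libraries were compared within each line, and a model of all 7 libraries gave the difference in response and the untreated lines. The alternatives were DESeq2 1.42.0, limma-voom (limma 3.58.1), no filter, 1 transcript per gene, a model of all 7 libraries, replicate number as a block and leaving out each library. Scripts were tested on simulated data. Differences between replicate libraries were described for genes with at least 10 reads in both. The comparison genes also had a mean CPM within the range of the members in that pair of libraries.

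All 35 genes of the rule are named where found, and up to 4 called genes with the smallest p from each of the other lists in each line. The 35 genes and all lists were chosen with earlier results of these data known. Promoter sequences come from RefSeq (GRCh38.p14), so their coordinates are not those of the counting build. GENCODE v29 gave transcript lengths for 32 members, not for GPI and PFKL. Poisson errors and the limit of 3 counts cover counting error only.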

Additional observations from a re-analysis of the deposited data

Results flagged for a closer look

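In 6 genes the effect of the BTK inhibitor differed between the lines in edgeR's test of the difference itself (RL effect minus JeKo-1 effect, log2 scale). These 6 of 33 were 18.2% of the genes tested, beside 17.8% of all genes. The calls of LDHB and HIF1A held in all 10 alternatives, those of PFKL and HK1 were each lost in 4 of 10, and those of PFKM and PFKFB3 in 1 each. The difference was 0.57 for PFKFB3 (0.34 in RL, -0.24 in JeKo-1, adjusted p = 0.00643), the only one of the 6 that passed the test within both lines, in opposite directions, and whose fall in JeKo-1 was lost in 5 of 7 alternatives. It was 0.44 for PFKL (0.55 in RL, 0.10 in JeKo-1, adjusted p = 0.0294) and 0.34 for HK1 (-0.14 in RL, -0.49 in JeKo-1, adjusted p = 0.0386). It was -0.33 for PFKM (-0.16 in RL, 0.16 in JeKo-1, adjusted p = 0.0155), -0.32 for HIF1A (0.04 in RL, 0.35 in JeKo-1, adjusted p = 0.0141) and -0.28 for LDHB (-0.04 in RL, 0.22 in JeKo-1, adjusted p = 0.012). The JeKo-1 side of each difference rests on 1 control library.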

How the results depend on the processing

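DESeq2 called 2956 genes in RL against 4543 with edgeR, and 1581 in JeKo-1 against 3970, and without treated JeKo-1 replicate 1 the JeKo-1 count was 2397 (2931 without replicate 2). Leaving out 1 library gave 3345 to 4326 genes in RL. Among the members in RL, rises numbered 11 and falls 2 with no filter, DESeq2 called 0 falls, and leaving out 1 library gave 4 to 14 rises and 1 to 5 falls. In JeKo-1, rises were 4 in the 7-library model and 4 in DESeq2, and falls were 1 and 2 in these fits and 5 with no filter. There, leaving out 1 treated library gave 3 to 4 rises and 1 fall. For the difference between lines, members higher in RL numbered 1 in DESeq2 and 9 with no filter, members lower in RL 5 with no filter, and leaving out 1 library gave 0 to 10 higher and 2 to 5 lower. Where a library was left out, the lone library of its group was assumed to vary like those of the other groups. Counts between the untreated lines stayed within 1.5 times of 13 and 14 in every alternative.

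The RL libraries share replicate numbers, and the labels do not say whether libraries of the same number belong together. Over 14932 genes the 2 groups' differences between replicates did not correlate (r = -0.01), and the main test used no pairing. An r over all genes does not show whether a smaller set of genes shares a difference by number. Over the 33 members alone r was 0.83; members are not independent and the 4 libraries are shared. With the replicate block 4416 genes were called in RL, with 11 members higher and 2 lower (39.4% of members, against 29.6% of all genes). PFKFB4, PDK1, ADM, BNIP3 and KDM3A gained a call as higher and LDHA as lower, with adjusted p between 0.000869 (KDM3A) and 0.0329 (LDHA). JeKo-1 groups share only 1 number, so no block was possible there.

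Several log2 fold changes that were not called changed sign when a library was left out. In RL they ranged from -0.31 to 1.03 for PFKFB4, -0.63 to 0.53 for VEGFA (0.029 in limma-voom), -0.33 to 0.87 for DDIT4, -0.23 to 0.46 for P4HA1, -0.0077 to 0.79 for BNIP3, -0.057 to 0.54 for ANKRD37, -0.077 to 0.50 for PDK1 and -0.16 to 0.23 for EGLN1. Ranges of enzymes and HIF1A in RL were narrower: -0.13 to 0.11 for PFKP, -0.047 to 0.067 for ALDOA, -0.0070 to 0.17 for PGAM1, -0.0073 to 0.074 for HIF1A, -0.12 to 0.013 for GPI, -0.11 to 0.059 for PGK1 and -0.080 to 0.026 for ENO1. In JeKo-1 they were -0.058 to 0.27 for PFKL and -0.092 to 0.022 for LDHA, and between the untreated lines -0.018 to 0.29 for ANKRD37 and -0.53 to 0.052 for KDM3A. The causes were not tested. With 2 or 1 libraries in a group, small changes cannot be separated from the spread between libraries.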

Other observations

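The untreated lines also differed across the genes around glycolysis. Of 27 other glycolysis genes tested, 12 were higher and 15 lower in control RL than in control JeKo-1, and of 29 other hypoxia genes 15 were higher and 9 lower, where 76.4% of all genes differed. SLC2A1, the main glucose transporter of many cell types, chosen here after its values were seen, had 64.7 and 72.0 CPM in treated RL, against 45.3 and 58.1 CPM in control RL (log2 fold change 0.41 ± 0.09, edgeR adjusted p = 0.00597), and 13.9 and 15.3 CPM in treated JeKo-1, against 13.7 CPM in control JeKo-1 (0.09 ± 0.11, adjusted p = 0.618). Its treated and control libraries did not overlap in RL.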
